A study of Homo sapiens with 2 samples.

Results

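A list of 44 genes of pre-mRNA splicing was described here on 2 Affymetrix arrays of PLC/PRF/5, a human liver cancer line. The genes were the SR proteins, the hnRNP proteins, subunits of the U2 snRNP and of the factor that reads the 3′ splice site, PRPF factors, the kinases CLK1 and CLK4, and RBM39. A probe set counted when the array's annotation gave it exactly 1 gene symbol and that symbol was on the list. This took in 149 probe sets of 42 of the 44 genes, out of 41091 such probe sets for 19775 genes. SRSF2 and SRSF9 had no probe set annotated to them alone and are not analysed here.

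One array held RNA of chemoresistant hepatospheres, tumour spheroids treated with cisplatin, a platinum drug that crosslinks DNA, in combination with doxorubicin, an anthracycline. The other held RNA of differentiated cells, made by giving spheroids fetal bovine serum (FBS) and letting them attach. Spheroid growth, serum and attachment therefore differed together, and the sources used here do not give doses, times or any drug exposure of the differentiated cells. Each group was 1 array of 1 line, so differences are untested and have no error.

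Splicing removes introns from a new transcript and joins its exons. The U2 snRNP and U2AF recognise the end of an intron, and the PRPF factors belong to the complexes that then build and run the catalytic spliceosome. SR proteins bind exons and mostly favour their inclusion, hnRNP proteins coat the nascent RNA and often act against them, and CLK kinases phosphorylate SR proteins. Many of these factors also regulate their own transcripts through alternatively spliced exons that lead to decay.

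Values are MAS5 signals, the array's brightness per probe set on a linear scale, as deposited. A gene was represented by its brightest probe set, and a difference is the log2 signal in hepatospheres minus that in differentiated cells. Signals below a floor of 84.1 units were set to it, so a difference with 1 array below the floor is a bound, given as "at least". All 42 genes reached the floor on both arrays with their brightest probe set. Signals of different genes come from different probes and were not set against each other, except in the sums of cell type markers. In those sums the brightest probe sets weigh most.

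Most of the splicing genes read lower in hepatospheres. Of the 42, 12 were at least 2-fold lower, 1 was at least 2-fold higher and 29 lay within 2-fold. Among all 12766 genes that reached the floor, 8.83% were at least 2-fold lower and 12.5% at least 2-fold higher. The difference was below 0 for 33 of the 42 genes, against 47.3% of all genes. In bulk RNA, fewer cells of one state and less of an mRNA per cell cannot be told apart. The median was -0.52 for the splicing genes and 0.05 for all genes. The differences were of moderate size, from -1.82 for HNRNPM to 1.36 for CLK1. Of the 12 lower genes 4, SRSF7, TRA2B, U2AF1 and U2AF2, sat at the threshold at 2.004-fold to 2.015-fold lower, and HNRNPF lay just outside it at 1.95-fold lower.

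The size of this shift depended on the probe sets read. Without probe sets whose names mark sequence shared between transcripts (_s_at, _x_at or _a_at), 30 genes were left, with a median of -0.066. Of these, 6 were at least 2-fold lower and 3 at least 2-fold higher, against 9.66% and 12.7% of all genes read the same way. With arrays scaled to the spiked poly(A) control RNAs, which read 2.07-fold higher on the hepatosphere array, 37 of the 42 genes were at least 2-fold lower and 0 higher, against 47.3% and 3.18% of all genes. That scaling moves the median of all genes to -0.94, so the directions given here are relative to the bulk of genes. Relative to the median of all genes, the median of the 42 stood at -0.57 as deposited and at -0.63 with poly(A) scaling. Poly(A) scaling divides the whole hepatosphere array by the same factor, so these values can differ only through the floor. With the mean over all probe sets the relative median was -0.32. Without shared-sequence probe sets that of the 30 genes was -0.11, with 16 of the 30 below 0. The ratio of 3′ to 5′ signal of the ACTB control was 2.64 in hepatospheres and 1.48 in differentiated cells, and that of GAPDH was 1.04 and 0.99. The part of these array differences in the results was not tested.

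**Figure D1:**
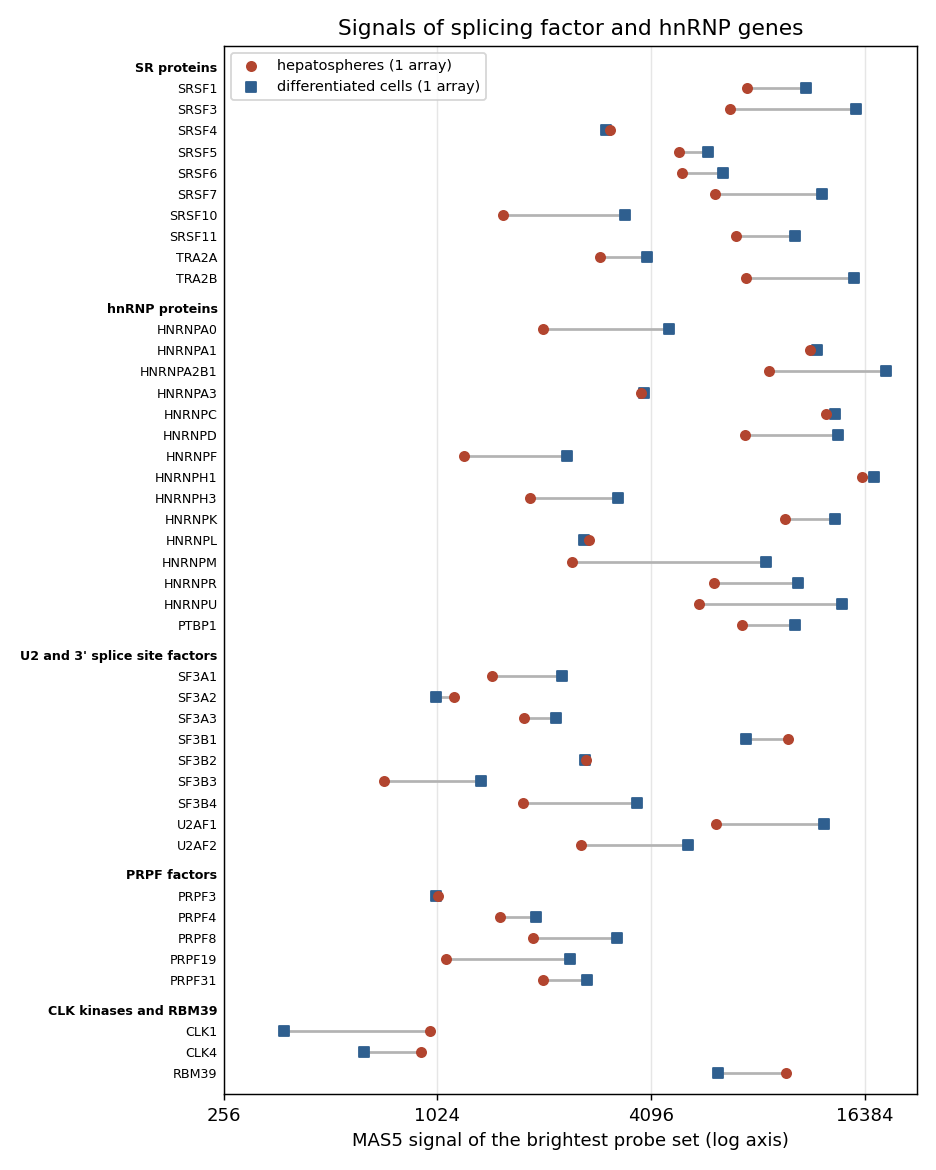
MAS5 signal (log axis) of the brightest probe set of each of the 42 genes in hepatospheres (red circles) and in differentiated cells (blue squares), 1 array each, by role. In 33 genes the hepatosphere signal lies to the left; CLK1, CLK4, RBM39 and SF3B1 have it clearly to the right.

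SR proteins, which carry domains rich in arginine and serine and define exons, were lower in 9 of 10 measured genes, 4 of them by at least 2-fold and 0 higher by 2-fold (median -0.55). Of all genes 47.3% were lower, 8.83% by at least 2-fold, and 12.5% were at least 2-fold higher. SRSF3, a small SR protein that also couples splicing to mRNA export, read 6834 in hepatospheres and 15545 in differentiated cells, 2.27-fold lower. All 5 of its probe sets that reached the floor read lower, by between -0.33 and -2.69 on the log2 scale. SRSF10, which acts in heat shock and cell cycle responses of splicing, read 1563 in hepatospheres and 3466 in differentiated cells, 2.22-fold lower. Its 5 probe sets went the same way, the strongest at -1.21. TRA2B, a splicing activator related to SR proteins, read 7575 in hepatospheres and 15252 in differentiated cells, 2.01-fold lower, with all 3 probe sets that reached the floor below 0.

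SRSF7, whose zinc knuckle sets it apart from its relatives, read 6188 in hepatospheres and 12403 in differentiated cells, 2.004-fold lower. Its probe set 211439_at stood at 0.12 and 3 others below 0. The remaining SR genes were within 2-fold. SRSF1, the founding member of the family, stood at -0.56 with 7626 in hepatospheres and 11226 in differentiated cells, but 3 of its 8 probe sets read higher, up to 0.90. SRSF11 stood at -0.54 and SRSF6 at -0.38. SRSF5 stood at -0.28, with its dimmest probe set, below the floor in differentiated cells, at least 0.58 higher. SRSF4 was level, with 3146 in hepatospheres and 3057 in differentiated cells (0.04), although its 2 dimmer probe sets that reached the floor stood at -0.27 and, below the floor in hepatospheres, at -0.79 or lower.

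TRA2A and TRA2B are close paralogs, and their readings were set side by side. TRA2A stood at -0.44 on its brightest probe set, with 2938 in hepatospheres and 3981 in differentiated cells. Its other 3 probe sets that reached the floor read higher, up to 0.78. TRA2B had no probe set above 0. The difference between the paralogs was not tested.

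The hnRNP proteins, which bind nascent RNA and take part in splicing, export and stability of mRNA, were lower in 14 of 15 genes, 4 by at least 2-fold and 0 higher by 2-fold (median -0.79). The shares of all genes were 47.3%, 8.83% and 12.5%. Some of the 14 were close to level, and without shared-sequence probe sets the group median turned above 0. HNRNPM, which regulates alternative splicing in epithelial and mesenchymal states, was the lowest of all 42 genes. It read 2446 in hepatospheres and 8614 in differentiated cells, 3.52-fold lower. A second bright probe set, 200072_s_at, read 2076 in hepatospheres and 8340 in differentiated cells, a difference of -2.01. A dimmer one, 1555843_at, went the other way, with 448 in hepatospheres and 129 in differentiated cells (1.80). Without shared-sequence probe sets HNRNPM is represented by that one, so its direction turned. The turn rests on 1 probe set. The other HNRNPM probe sets without such a name that reached the floor read lower. Probe set 214918_at, with 185 in hepatospheres and 276 in differentiated cells, stood at -0.58. Probe set 1556084_at, below the floor in hepatospheres, stood at -0.12 or lower.

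HNRNPU, a scaffold protein that also ties RNA to chromatin, read 5579 in hepatospheres and 14128 in differentiated cells, 2.53-fold lower. All 4 of its probe sets that reached the floor were at least 2-fold lower, the strongest at -2.21. HNRNPA0, a member of the A/B family that binds AU-rich mRNA, read 2037 in hepatospheres and 4612 in differentiated cells, 2.26-fold lower, and its 3 probe sets went the same way. HNRNPA2B1, an A/B protein that also sorts and transports RNA, read 8797 in hepatospheres and 18882 in differentiated cells, 2.15-fold lower. Its probe set 225107_at stood at 0.42, so the direction turned when shared-sequence probe sets were left out.

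The other A/B proteins differed little on their brightest probe sets. HNRNPA1, which antagonises SRSF1 at many splice sites, read 11528 in hepatospheres and 12019 in differentiated cells (-0.06), with its other probe sets at 0.10 and -0.62. HNRNPA3 read 3844 in hepatospheres and 3918 in differentiated cells (-0.03), while its probe sets spanned -1.83 to 0.55. HNRNPC, which binds uridine tracts and keeps cryptic exons silent, stood at -0.08 and HNRNPH1, which binds G-rich RNA, at -0.10. HNRNPL, a binder of CA repeats, stood at 0.04, with its other probe set at -0.06.

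Several hnRNP genes lay between these and the 2-fold line. HNRNPF stood at -0.96 on its only probe set, with 1220 in hepatospheres and 2382 in differentiated cells. HNRNPH3, of the same family, stood at -0.83, with all 4 probe sets below 0. HNRNPD (AUF1), which promotes decay of AU-rich mRNA, stood at -0.87 and HNRNPR at -0.79. HNRNPK, which binds C-rich RNA and DNA, stood at -0.46, and its second probe set, 200097_s_at, at -1.55. PTBP1, the polypyrimidine tract-binding repressor of exons, read 7399 in hepatospheres and 10456 in differentiated cells (-0.50), while 2 dimmer probe sets, each below the floor on 1 array, stood at 0.21 or more and at -0.35 or lower.

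Factors of the 3′ splice site were split. Of 9 genes, 3 were at least 2-fold lower, 0 at least 2-fold higher, 6 below 0 and 3 above it (median -0.66). Among all genes 8.83% were at least 2-fold lower, 12.5% at least 2-fold higher and 47.3% below 0. U2AF1, the small subunit that reads the AG at the intron's end, read 6267 in hepatospheres and 12626 in differentiated cells, 2.01-fold lower. Its other 2 probe sets that reached the floor stood at 0.65 and 0.99, and the mean over all 3 was 0.21, so the direction turned. U2AF2, the large subunit that binds the polypyrimidine tract, read 2594 in hepatospheres and 5217 in differentiated cells, also 2.01-fold lower. Both of its probe sets that reached the floor were below 0, with a mean of -0.97.

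The SF3A and SF3B complexes hold the U2 snRNP on the branch point. SF3B1, the subunit that grips the branch point helix, was the highest of the 9, with 9983 in hepatospheres and 7601 in differentiated cells (0.39), and 4 of its 5 probe sets read higher. The other, 229303_at, stood at -0.43. SF3B4 read 1785 in hepatospheres and 3746 in differentiated cells, 2.10-fold lower on its only probe set. SF3B3 stood at -0.91 on one probe set and at 0.56 on the other. SF3B2 was level, with 2678 in hepatospheres and 2660 in differentiated cells. SF3A1 stood at -0.66, but its 4 probe sets ran from -0.94 to 0.32. SF3A3 stood at -0.31. SF3A2 stood at 0.16, with its other probe set at -0.008.

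Among the 5 PRPF factors 4 were below 0, 1 of them by at least 2-fold and 0 higher by 2-fold (median -0.41). Over all genes 47.3% were below 0, 8.83% at least 2-fold lower and 12.5% at least 2-fold higher. PRPF19, the ubiquitin ligase that names the PRPF19 complex, read 1081 in hepatospheres and 2427 in differentiated cells, 2.25-fold lower on its only probe set. PRPF8, the scaffold at the catalytic centre, stood at -0.79, with 1900 in hepatospheres and 3290 in differentiated cells. PRPF31 and PRPF4 stood at -0.41 and -0.34, each with both probe sets that reached the floor below 0. PRPF3, like them a protein of the U4/U6 snRNP, was level, with 1028 in hepatospheres and 1017 in differentiated cells.

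The kinases and RBM39 went the other way. CLK1, which releases SR proteins from nuclear speckles by phosphorylating them, read 973 in hepatospheres and 379 in differentiated cells, 2.57-fold higher on its only probe set. With poly(A) scaling CLK1, RBM39 and CLK4 stood at 0.31, -0.41 and -0.51, above the median of all genes at -0.94. Its paralog CLK4 read 920 in hepatospheres and 634 in differentiated cells (0.54), with a second probe set at 0.28. RBM39, an SR-like partner of U2AF, read 9844 in hepatospheres and 6329 in differentiated cells (0.64). Of its 4 probe sets 3 read higher, and 207941_s_at stood at -0.13. The highest, 226404_at, below the floor in differentiated cells, stood at 1.42 or more.

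**Figure D2:**
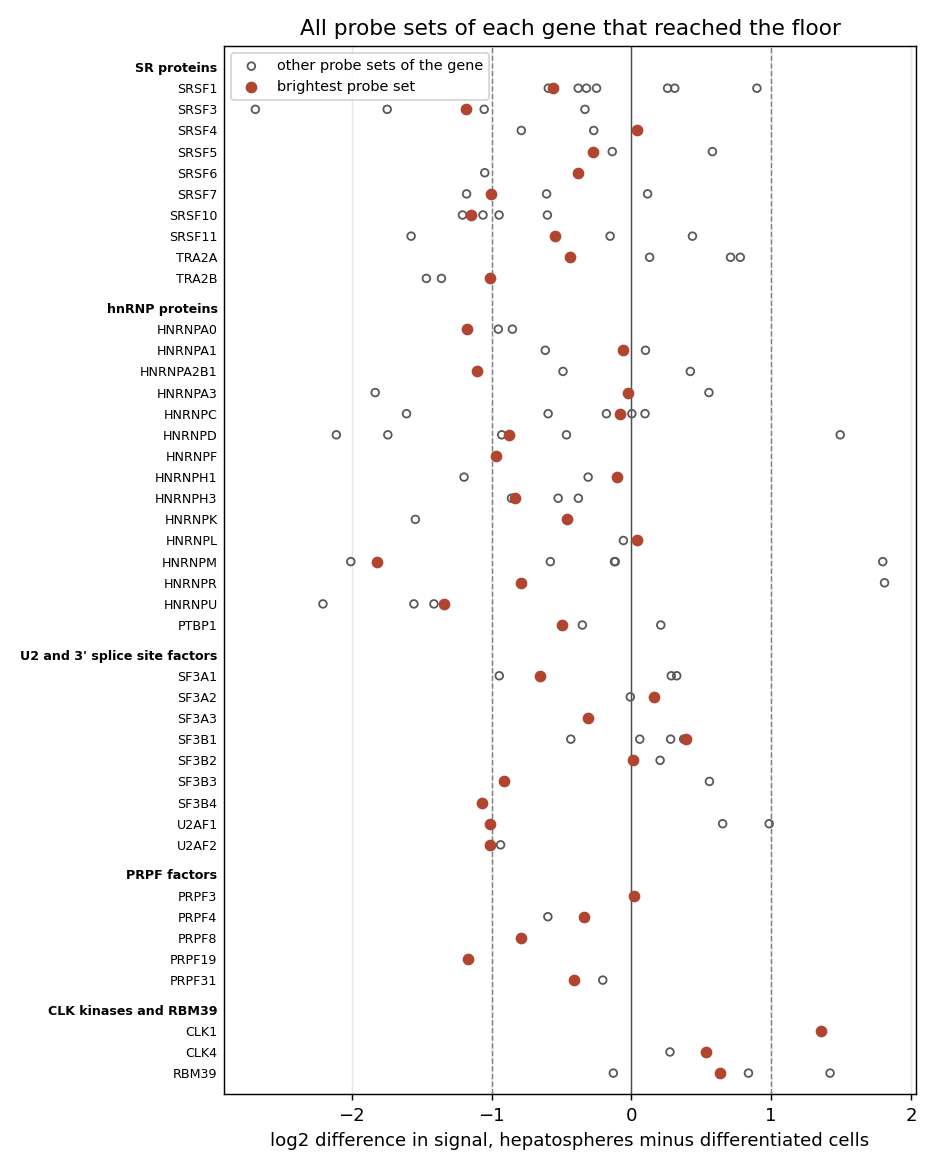
Log2 difference in signal (hepatospheres minus differentiated cells) of every probe set that reached the floor, by gene; filled points are the brightest probe set, open circles the others, dashed lines a 2-fold difference. Points of SRSF10, TRA2B, HNRNPA0 and HNRNPU all lie left of 0, while those of HNRNPD and HNRNPM span from below -2 to above 1.

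Probe sets of 1 gene often disagreed. Of 35 genes with at least 2 probe sets that reached the floor, 21 had probe sets on both sides of 0, against 2238 (35.9%) of all 6230 such genes. In 17 of the 35 (48.6%) the probe sets lay more than 1 apart on the log2 scale, against 27.3% of all such genes. The splicing genes also had more probe sets each, 122 over 35 genes, against 17239 over 6230. Averaged over pairs of probe sets, which does not grow with their number, the median disagreement was 0.60 for the splicing genes and 0.45 for all genes.

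The probe sets of HNRNPM were furthest apart, 3.80 on the log2 scale, and those of HNRNPD came next, 3.60 apart. The brightest HNRNPD probe set, 200073_s_at, read 7526 in hepatospheres and 13779 in differentiated cells. Probe set 221480_at read 316 in hepatospheres and 1364 in differentiated cells (-2.11), and 213359_at read 2895 in hepatospheres and 1028 in differentiated cells (1.49). HNRNPR showed the same split, with 672 in hepatospheres and 192 in differentiated cells on 232004_at (1.81), while its other 2 probe sets both stood at -0.79. HNRNPC had 1 probe set, 227110_at, at -1.61 beside 5 between -0.60 and 0.10, and SRSF11 had 213742_at at -1.58 and 236948_x_at at 0.44 or more, being below the floor in differentiated cells. HNRNPH1 had 213470_s_at at -1.20 beside 2 at -0.31 and -0.10. Which exons or untranslated parts these probe sets read is not given in the files, so isoforms and probe behaviour cannot be told apart.

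Of the 12 lower genes 10 had more than 1 probe set that reached the floor. In 6 of them, SRSF3, SRSF10, TRA2B, HNRNPA0, HNRNPU and U2AF2, every such probe set was below 0. In SRSF7, HNRNPA2B1, HNRNPM and U2AF1 at least 1 was above it. The brightest probe set was below 0 in all of these genes by selection. How often the other probe sets of all genes at least 2-fold lower go the same way was not taken. Over single probe sets, 32 of 129 were at least 2-fold lower and 5 at least 2-fold higher, where 9.59% and 11.6% of all probe sets that reached the floor were. The 5 higher ones belonged to CLK1, HNRNPD, HNRNPM, HNRNPR and RBM39. The second brightest probe set of each of the 35 genes gave a smaller shift, with a median of -0.20 and 23 (65.7%) below 0. Of the 35, 7 (20%) were at least 2-fold lower. The second brightest probe sets of all genes had a median of -0.03, with 51.4% below 0 and 10.8% at least 2-fold lower.

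Probe sets of the splicing genes also split by the kind of name. The 72 probe sets of splicing genes with names ending in _s_at, _x_at or _a_at had a median of -0.53, and the 57 others a median of -0.15. Over all genes the medians were -0.0013 and 0.035. The genes at least 2-fold lower without shared-sequence probe sets were SRSF10, TRA2B, HNRNPA0, HNRNPC, HNRNPU and U2AF1, and those at least 2-fold higher were HNRNPD, HNRNPM and HNRNPR. CLK1, SF3B4, PRPF19 and U2AF2 were not among the 30 genes that this left.

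**Figure D3:**
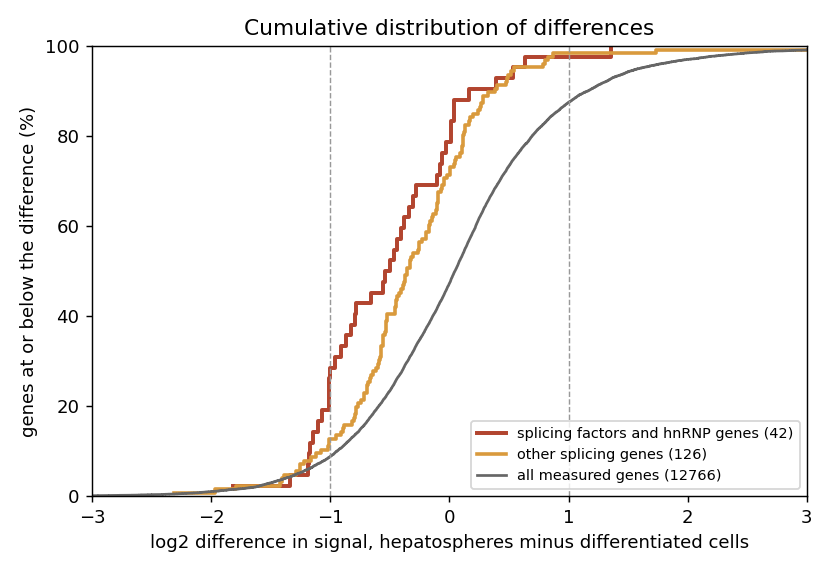
Share of genes (%) at or below each log2 difference (hepatospheres minus differentiated cells) for the 42 splicing factor and hnRNP genes, 126 other splicing genes and all 12766 measured genes, each on its brightest probe set. The curve of the 42 genes runs left of that of all genes from about -1 upward. The other splicing genes lie between in the middle of the range, but their curve crosses that of the 42 towards both ends.

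Other genes of the splicing machinery were read in 10 lists. Of 126 measured, 16 (12.7%) were at least 2-fold lower and 2 (1.59%) at least 2-fold higher, with 90 below 0 and a median of -0.36. Over all genes, as above, 8.83% were at least 2-fold lower, 12.5% at least 2-fold higher and 47.3% below 0, and the shares of most single lists rest on 1 or 2 genes. The Sm and LSm proteins, which form rings on the snRNAs, had 2 of 15 at least 2-fold lower and 0 higher (median -0.41). These were LSM6, with 1245 in hepatospheres and 3047 in differentiated cells, and SNRPF, with 5268 in hepatospheres and 12252 in differentiated cells. LSM2 and SNRPB stood at -0.91 and -0.89. Of 15 U1 and other U2 factors 2 were at least 2-fold lower, U2SURP at -1.12 (its 4 probe sets from -1.76 to -0.11) and the helicase DHX15 at -1.01 (median -0.52). The other tri-snRNP factors were all within 2-fold, 11 of 14 below 0 (median -0.53), with PRPF38B at -0.78 and PPIH at -0.69.

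Relatives of the hnRNP proteins had 5 of 15 at least 2-fold lower and 0 higher (median -0.45). MATR3, a nuclear matrix RNA-binding protein, read 468 in hepatospheres and 2327 in differentiated cells, 4.98-fold lower on its only probe set that reached the floor. PTBP2, the neuronal paralog of PTBP1, stood at -1.42, SYNCRIP at -1.26 with all 7 probe sets below 0, HNRNPAB at -1.16 and KHSRP at -1.01, with 1 of its 3 probe sets at 0.04. Of 13 SR-related proteins 1 was at least 2-fold lower, SRSF8 at -1.39 with all 4 probe sets below 0 (median -0.33), and PNN stood at 0.87. The SR protein kinases outside the CLK1 and CLK4 pair were all within 2-fold, with SRPK1 at -0.79 and CLK3 at 0.49.

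The PRPF19 complex and late step factors stood near all genes, with a median of 0.04 and 1 of 19 at least 2-fold lower. That gene was CWC15, with 3316 in hepatospheres and 11511 in differentiated cells, and BUD31 stood at 0.80. The exon junction complex and nonsense-mediated decay genes, which act on spliced mRNA, had 8 of 9 below 0 and 1 at least 2-fold lower, MAGOHB at -1.40 (median -0.53). In the minor spliceosome, which removes a rare class of introns, 2 of 7 were at least 2-fold lower, SNRNP25 at -1.96 and SNRNP35 at -1.25, while SNRNP48 stood at 0.79.

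Tissue regulators of splicing held both of the genes at least 2-fold higher among the 126. MBNL3, a muscleblind protein that binds CUG-rich RNA and is known from fetal liver, read 2528 in hepatospheres and 79.3, below the floor, in differentiated cells, at least 30.04-fold higher. Its 3 probe sets that reached the floor all read higher, from 0.45 to 4.91. Its paralog MBNL2 read 2211 in hepatospheres and 666 in differentiated cells, 3.32-fold higher, with all 5 probe sets above 0. RBM47, an epithelial splicing regulator, stood at -1.08, its 3 probe sets running from -1.99 to -0.72. KHDRBS1 (SAM68) stood at -1.02, with 1 of 3 probe sets at 0.07.

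**Figure D4:**
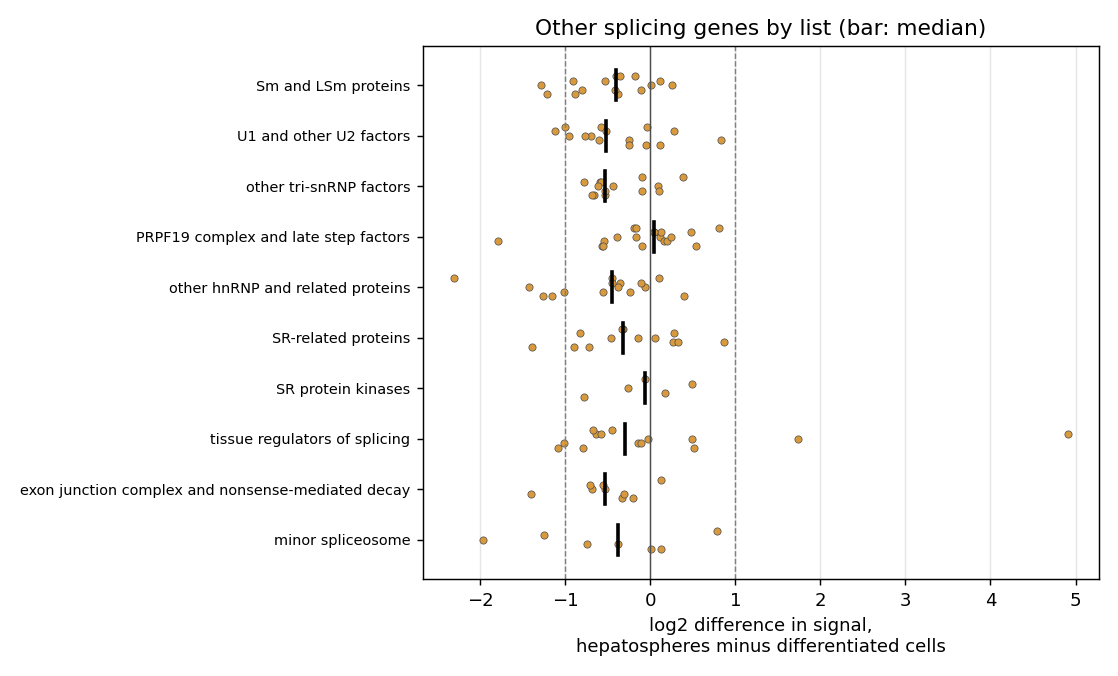
Log2 difference (hepatospheres minus differentiated cells) of other splicing genes by list, 1 point per gene on its brightest probe set; black bars are list medians and dashed lines a 2-fold difference. Most points lie between -1 and 0.5, and MBNL3, at 4.91, stands far right among the tissue regulators.

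Promoters are shown for SRSF3, HNRNPM and HNRNPU, the lowest SR gene and the 2 lowest hnRNP genes, and for CLK1, the only gene at least 2-fold higher. Each is the 250 bases before the RefSeq start on build GRCh38.p14, 5′ to 3′ on the gene's own strand. The capitals mark matches, on either strand, to the motifs searched. These were the E-box CACGTG, the ETS motif CCGGAAG, the CCAAT box CCAAT, the GC box GGGCGG, the E2F motifs TTTGGCGC and TTTCGCGC, and the CRE TGACGTCA. The positions are chr6:36594112-36594361 on the plus strand for SRSF3, chr19:8444725-8444974 on the plus strand for HNRNPM, chr1:244864544-244864793 on the minus strand for HNRNPU and chr2:200864659-200864908 on the minus strand for CLK1.
SRSF3: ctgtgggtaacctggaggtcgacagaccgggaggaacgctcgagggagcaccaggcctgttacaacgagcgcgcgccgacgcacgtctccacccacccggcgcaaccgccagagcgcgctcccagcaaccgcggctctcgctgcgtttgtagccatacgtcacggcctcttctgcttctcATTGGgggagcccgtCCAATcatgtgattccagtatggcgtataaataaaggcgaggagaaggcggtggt
HNRNPM: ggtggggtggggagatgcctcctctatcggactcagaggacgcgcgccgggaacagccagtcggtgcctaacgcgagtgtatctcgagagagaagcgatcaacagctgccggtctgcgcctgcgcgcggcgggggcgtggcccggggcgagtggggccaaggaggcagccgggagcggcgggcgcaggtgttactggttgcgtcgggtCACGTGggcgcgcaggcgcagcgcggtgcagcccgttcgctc
HNRNPU: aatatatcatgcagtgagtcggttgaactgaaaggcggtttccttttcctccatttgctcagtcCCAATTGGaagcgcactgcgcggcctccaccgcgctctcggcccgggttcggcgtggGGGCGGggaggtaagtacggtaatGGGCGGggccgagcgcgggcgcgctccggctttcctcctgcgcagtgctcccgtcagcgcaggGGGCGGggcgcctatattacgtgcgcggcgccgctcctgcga
CLK1: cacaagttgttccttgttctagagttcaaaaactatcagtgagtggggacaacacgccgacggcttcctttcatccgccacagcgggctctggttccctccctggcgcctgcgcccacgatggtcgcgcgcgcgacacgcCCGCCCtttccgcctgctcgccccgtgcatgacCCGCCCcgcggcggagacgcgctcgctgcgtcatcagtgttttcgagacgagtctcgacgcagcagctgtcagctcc

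The SRSF3 promoter held CCAAT boxes starting 70 and 55 bases before the start, the HNRNPM promoter an E-box 42 bases before it, and the HNRNPU promoter 3 GC boxes and 2 overlapping CCAAT boxes. The CLK1 promoter held 2 GC boxes. Over the 38 of 44 genes with a promoter in the RefSeq table, 23 (60.5%) held a GC box, against 65.9% of 10375 measured genes and 42.3% of all 27305 promoters. A CCAAT box was found in 14 (36.8%), against 35.3% of measured genes and 33.0% of all promoters. An ETS motif was found in 10 (26.3%), against 15.7% of measured genes and 8.82% of all promoters, and an E-box in 6 (15.8%), against 8.88% and 6.49%. Of the 12 lower genes 2 held the ETS motif and 1 the E-box. The E2F motifs were found in 1 of the 38 (1.56% of measured genes and 0.996% of all promoters) and the CRE in 0 (2.83% and 1.77%). A match describes letters in this window, not a bound site.

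The labelled cell type was checked against liver markers. All 12 measured of 14 reached the floor on both arrays, among them ALB with 27887 in hepatospheres and 10276 in differentiated cells. Their summed signal was 246503 in hepatospheres and 152043 in differentiated cells. At least 2-fold higher were 4, ALB, APOA2, APOH and TTR, and at least 2-fold lower 2, where 12.5% and 8.83% of all genes were. The 2 lower were AFP, with 433 in hepatospheres and 2451 in differentiated cells, and KRT8, with 5077 in hepatospheres and 10970 in differentiated cells. Of 7 markers of blood, endothelial and stromal cells 3 reached the floor in hepatospheres and 2 in differentiated cells, with summed signals of 4506 in hepatospheres and 3872 in differentiated cells. PECAM1, an endothelial and blood cell adhesion molecule, made up most of these sums, with 3787 in hepatospheres and 3388 in differentiated cells. COL1A1 read 471 in hepatospheres and 290 in differentiated cells, and DCN 139 in hepatospheres and 76.2, below the floor, in differentiated cells. PTPRC, CD3E, VWF and COL1A2 lay below the floor on both arrays. The part of these markers in the results was not tested.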

How the data were processed

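The authors deposited MAS5 intensity values in linear units, 1 for each probe set, per the submitters' processing notes. The sources used here give neither its version nor its scaling target. MAS5 subtracts mismatch brightness and scales each array as a whole, so weak signals are noisy and the bulk of genes is set level. Of 54675 probe sets, 62 controls were left out, and the rest took their names from GEO's array annotation (1801 had several symbols and 11721 none). All 42 genes with a probe set of their own matched RefSeq gene identifiers under the same symbol.

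Groups were taken from the source names. Each gene was read on the probe set whose log2 signal averaged highest over the arrays. The floor was the higher of the arrays' median signals, 84.1 in hepatospheres and 70.6 in differentiated cells. The number of arrays limits precision: with 1 array per group no test was made, and counts are given beside those over all genes. The members and the 10 other lists were chosen with earlier results of these data known. From each of those lists up to 4 genes with the largest differences were named, and those 2-fold apart where 6 or fewer were. Where probe sets of a member that reached the floor differed in sign or by over 1, some of them, their range or their directions are given. List medians and counts were checked on simulated data. In these data 1 probe set per gene stood far above the rest, so neither the floor nor the choice among probe sets was checked. Alternatives were median, quantile, loess and poly(A) control scaling, floors at the 40th and 60th percentiles or none, log2 of signal plus the floor, the mean over all probe sets, and leaving out shared-sequence probe sets. The mean over probe sets that reach the floor was added after seeing the data. Python 3.11.15, numpy 2.4.6, pandas 2.3.3, statsmodels 0.14.6 and matplotlib 3.10.9 were used.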

Additional observations from a re-analysis of the deposited data

Results flagged for a closer look

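Probe sets annotated to a listed splicing gene together with another gene were not used in the comparison. There were 15, all of which reached the floor, and all 15 read lower in hepatospheres. Their median difference was -0.68 on the log2 scale, between -2.41 and -0.30, and 6 were at least 2-fold lower. Of all probe sets with 1 symbol that reached the floor, 9.59% were at least 2-fold lower, and 47.3% of all genes were below 0. The shares among all probe sets with several symbols were not taken, so these 15 lack a like background. They are named to no gene.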

How the results depend on the processing

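The median (-0.52 over the 42 genes) stayed below 0 under all 12 alternatives, but its size changed, and not every alternative could turn it. Other floors or none left it at -0.52, because the brightest probe sets of all 42 genes lay above each floor on both arrays. Dividing by array medians and poly(A) scaling shift all of these genes by the same amount. Between 8 and 18 genes were at least 2-fold lower, against 12, with quantile and loess scaling, with each array divided by its median, with other floors or none and with log2 of signal plus the floor. The 18 came from dividing by array medians, where 14.6% of all genes were at least 2-fold lower. In the rest of these settings that share was 7.06% to 12.3%. Averaging the signals of all of a gene's probe sets, those below the floor included, gave 7, against 8.46% of all genes. Averaging the differences of those that reach it, chosen after seeing the data, gave 6, against 7.69%. Without _s_at and _x_at probe sets, with or without _a_at, there were 6 lower and 3 higher among 30 genes, with a median of -0.066. Of these 30 genes 16 were below 0 and 14 above it. Among all genes read the same way 9.56% to 9.66% were at least 2-fold lower and 12.7% at least 2-fold higher. Scaled to the poly(A) controls there were 37 lower and 0 higher, against 47.3% and 3.18% of all genes, with a median of -1.57. Dividing each array by its median signal gave -0.77. Genes higher made up 58.7% of all genes 2-fold apart, 38.3% after dividing by array medians and 6.30% after poly(A) scaling.

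Medians of the SR, hnRNP, 3′ splice site, PRPF and CLK/RBM39 genes, in this order, were -0.80, -1.04, -0.91, -0.66 and 0.38 after dividing by array medians, and -1.60, -1.83, -1.70, -1.46 and -0.41 after poly(A) scaling. Those of the other lists, in the order Sm and LSm, U1 and U2, tri-snRNP, PRPF19 and late steps, hnRNP-related, SR-related, kinases, tissue regulators, exon junction and decay, and minor spliceosome, were -0.66, -0.77, -0.78, -0.21, -0.71, -0.58, -0.32, -0.55, -0.78 and -0.63, and -1.45, -1.57, -1.58, -1.004, -1.499, -1.37, -1.11, -1.34, -1.58 and -1.42. With the mean over all probe sets the 3′ splice site factors stood at 0.079, U1 and other U2 factors at -0.23 and tissue regulators at 0.15. Over those that reach the floor the 3′ splice site factors stood at -0.18, U1 and other U2 factors at -0.25 and hnRNP genes at -0.47. Without shared-sequence probe sets the hnRNP genes stood at 0.071, 3′ splice site factors at -0.21, PRPF factors at -0.16, SR-related proteins at 0.13 and kinases at 0.22.

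Among the 13 genes 2-fold apart, U2AF1 and U2AF2 turned to 0.68 and 0.33 with the mean over all probe sets. Over those that reach the floor U2AF1 stood at 0.21 and U2AF2 at -0.97, so the turn of U2AF2 rests on probe sets below the floor on both arrays. HNRNPA2B1 and HNRNPM turned to 0.42 and 1.80 without shared-sequence probe sets. The cause of the other turns was not tested. List medians were taken as moved past 0.25. No paired analysis was possible because each group had 1 array.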
